A study of Homo sapiens with 22 samples.

Results

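The DHRS genes encode members of the short-chain dehydrogenase/reductase family, enzymes that bind NAD(H) or NADP(H) and interconvert alcohols with aldehydes or ketones. The 6 genes listed here were DHRS1, DHRS2, DHRS3, DHRS4, DHRS7 and DHRS9. They were chosen from measured values of this same experiment, DHRS2 because it had the largest increase after treatment and the others as its paralogs. All treated minus untreated differences of these genes are therefore given as a description, without a test. Of the 6 genes, 5 had an array element annotated to that gene alone, 6 elements in all, out of 15461 genes named in this way among 32878 elements per array. DHRS9 had 2 elements, and the element with the higher mean over all arrays stands for the gene. No element was named for DHRS4, and it has no value here.

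The study grew 11 established lines of B-cell lymphoma, each in the absence and in the presence of epigenetic drugs, to find genes whose expression returns when DNA methylation and histone deacetylation are blocked. Treated cells received 5-aza-2'-deoxycytidine (aza, 1 µM), which blocks DNA methyltransferases, over 72 h with an addition every 24 h, and trichostatin A (TSA, 0.5 µM), a histone deacetylase inhibitor, for the last 12 h. Untreated cells of the same line were cultured in parallel and received neither drug. Total RNA of each of the 22 cultures was hybridized to 1 Applied Biosystems human genome array, so each line gave 1 value per condition and the replicates of the comparison are the 11 lines. Both drugs were given together to every treated culture, and their effects cannot be told apart. The lines were 3 of Burkitt's lymphoma (BL: Raji, BL41, Ramos), 3 (HLY-1, OciLy3, OciLy10) of diffuse large B-cell lymphoma with an activated B cell profile (DLBCL ABC), 2 (SUDHL4, SUDHL6) of the germinal center kind (DLBCL GCB) and 3 of follicular lymphoma (FL: K422, SC-1, ROS50), with types as given in the methods of the study. The media were IMDM plus human plasma for OciLy3 and OciLy10, and RPMI plus fetal calf serum for the remaining 9. Levels are log2 signals after quantile normalization, on which every array has a median of 10.18, and a difference of 1 is a 2-fold change. Levels are compared between cultures for the same element and not between genes, because elements differ in how strongly they bind.

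In retinoid metabolism, retinol is oxidized to retinal by dehydrogenases of this family, retinal is oxidized further to retinoic acid by aldehyde dehydrogenases, and reductases of the same family turn retinal back into retinol. DHRS3 and DHRS4 are known as retinal reductases, DHRS9 as a retinol and steroid dehydrogenase, and DHRS7 and DHRS1 as membrane enzymes of the endoplasmic reticulum that reduce steroids and other carbonyl compounds. DHRS2, also called HEP27, reduces dicarbonyl compounds and is known to bind MDM2, the ubiquitin ligase of p53. DHRS1, DHRS2, DHRS4 and DHRS7 lie on chromosome 14, DHRS3 on chromosome 1 and DHRS9 on chromosome 2.

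The aza part of the treatment acts on methylated CpG dinucleotides, so the promoter windows of the genes are shown for their CpG content. The RefSeq table of GRCh38.p14 gave windows of 250 bases before to 50 bases after each annotated start for 5 of the 6 genes, not for DHRS7. DHRS2 had a single window (chr14:23629865-23630164, plus strand). The first of the DHRS1 windows (chr14:24299731-24300030, minus strand), of the DHRS3 windows (chr1:12618161-12618460, minus strand) and of the DHRS9 windows (chr2:169066827-169067126, plus strand) are shown for comparison. Each sequence runs 5′ to 3′ on the strand of the gene, and capitals mark CG and the motif TATAAA.
DHRS2: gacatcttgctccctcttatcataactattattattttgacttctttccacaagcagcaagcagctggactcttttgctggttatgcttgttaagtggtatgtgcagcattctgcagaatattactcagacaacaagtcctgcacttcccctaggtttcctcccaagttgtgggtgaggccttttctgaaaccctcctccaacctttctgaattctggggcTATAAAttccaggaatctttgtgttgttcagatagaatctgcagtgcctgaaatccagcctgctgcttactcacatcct
DHRS1: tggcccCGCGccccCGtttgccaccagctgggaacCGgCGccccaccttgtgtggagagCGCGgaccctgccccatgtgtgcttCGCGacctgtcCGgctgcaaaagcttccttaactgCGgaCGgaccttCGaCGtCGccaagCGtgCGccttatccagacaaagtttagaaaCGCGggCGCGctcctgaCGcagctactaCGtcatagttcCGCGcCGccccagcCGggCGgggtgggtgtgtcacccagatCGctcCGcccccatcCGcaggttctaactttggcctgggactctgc
DHRS3: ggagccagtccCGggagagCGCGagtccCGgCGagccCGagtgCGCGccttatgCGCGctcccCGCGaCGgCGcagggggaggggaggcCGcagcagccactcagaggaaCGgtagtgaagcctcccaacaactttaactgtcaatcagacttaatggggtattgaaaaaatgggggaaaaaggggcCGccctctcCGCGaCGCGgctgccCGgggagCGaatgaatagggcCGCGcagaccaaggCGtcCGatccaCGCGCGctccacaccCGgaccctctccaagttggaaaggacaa
DHRS9: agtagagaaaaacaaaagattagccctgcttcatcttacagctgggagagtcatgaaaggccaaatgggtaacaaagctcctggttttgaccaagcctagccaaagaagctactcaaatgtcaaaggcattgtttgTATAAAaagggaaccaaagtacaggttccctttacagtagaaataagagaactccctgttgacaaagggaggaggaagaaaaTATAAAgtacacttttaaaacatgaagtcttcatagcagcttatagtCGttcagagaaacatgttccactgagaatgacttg

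The DHRS2 window held no CpG and was 44.0% G and C. Of the 35116 windows in the table, 1391 (3.96%) held no CpG, and the median window held 14 CpG and was 58.7% G and C. The DHRS2 window held TATAAA at 1 place, its first base 29 bases before the start. On either strand TATAAA was found in 11.5% of all windows, and TATAAA together with no CpG in 1.37%. The DHRS1 window shown held 31 CpG and its second window (chr14:24299411-24299710) held 27. The DHRS3 windows held 31, 13 and 5 CpG, and the DHRS4 window (chr14:23953520-23953819) held 20. The 4 windows of DHRS9 held 1, 4, 2 and 0 CpG, and TATAAA was found on either strand in 3 of them. All windows of DHRS2 and DHRS9 thus held fewer CpG than the median window, and both of DHRS1 held more. Of the other motifs searched on both strands, GGGCGG, present in 45.0% of windows, was found in the windows shown for DHRS1 and DHRS3 and in that of DHRS4. CCAAT, present in 34.6%, was found only in the DHRS9 window without CpG among the windows of these genes. DNA methylation was not measured on these arrays, and CpG outside the windows was not analysed here.

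**Figure D1:**
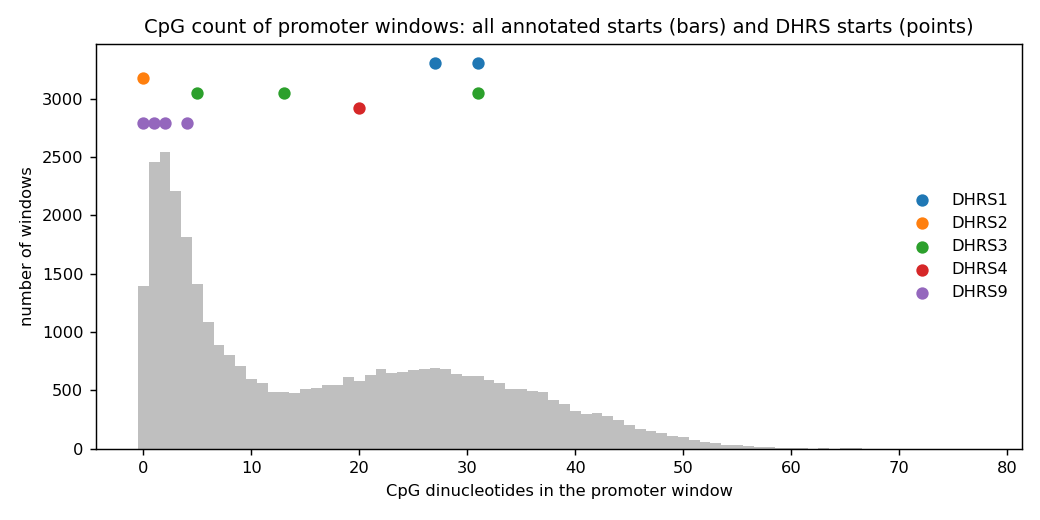
Number of RefSeq promoter windows of 300 bases (y axis) by the number of CpG dinucleotides they hold (x axis). Grey bars are all 35116 windows and coloured points are the windows of 5 DHRS genes, whose height has no meaning. The DHRS2 window held 0 CpG and the DHRS1 windows 27 and 31.

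The raw signals differed in strength between arrays. The 75th percentile of the raw signals was 2901 to 4547 for HLY-1, SUDHL4 and OciLy10 (6 arrays) and 4310 to 15058 for the other 8 lines, ranges that overlap. HLY-1 stood apart in its cell type markers. The mean level of 9 measured B cell markers was 11.65 in untreated HLY-1 and 14.75 to 16.55 in the other 10 untreated lines. The methods of the study list it as a B-cell lymphoma line like the others and state that all lines were authenticated by STR-loci analysis. Whether this culture was that line was not tested here. Values without HLY-1 are therefore given beside the results that rest on it, other than the correlations between the DHRS genes. After aza/TSA, 8 of the 9 B cell markers fell and none rose, against 12.4% and 11.2% of all elements (limma, adjusted p below 0.05). Their mean level was then 10.02 in HLY-1 and up to 14.52 in the other lines. Of the 8 T cell markers, 1 exceeded the array median on 6 or more arrays, and their mean level was 8.34 to 10.49 untreated and 8.71 to 9.84 treated. Of the 9 measured myeloid markers, 4 did so, with a mean level of 9.20 to 9.75 untreated and 8.96 to 11.54 treated, the highest in treated Ramos. The part of these shifts in the results below was not tested. In cultures measured as a whole, fewer expressing cells and less RNA per cell cannot be told apart.

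DHRS2 was low in most untreated lines and high in all treated ones. In the BL lines its untreated level was 8.62 in Raji, 8.01 in BL41 and 9.20 in Ramos, and its treated level was 15.71, 17.60 and 16.00. In the DLBCL ABC lines it went from 18.57 to 20.01 in HLY-1, from 8.99 to 17.95 in OciLy3 and from 8.07 to 18.87 in OciLy10. In both DLBCL GCB lines it was again low before treatment, with 7.54 in SUDHL4 and 8.28 in SUDHL6, and reached 16.86 and 16.53. In the FL lines it went from 14.29 to 19.67 in K422, from 7.98 to 15.07 in SC-1 and from 9.49 to 15.16 in ROS50. HLY-1 was thus the exception, with an untreated level above that of all treated lines but OciLy10, K422 and HLY-1 itself. K422 was intermediate, and the other 9 untreated lines were all below the array median.

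The mean DHRS2 level was 9.91 ± 3.41 untreated (SD, n = 11, median 8.62) and 17.22 ± 1.74 treated. The mean difference was 7.31 ± 2.58 (SD, n = 11, SE 0.78), a 158-fold increase. The fold ranged from 2.71 in HLY-1 to 1783 in OciLy10. Untreated DHRS2 lay below the 25th percentile of its array in 6 lines, and folds over such dim signals are not exact. With those values set at that percentile, an alternative chosen after seeing the data, OciLy10 was 1126-fold and SUDHL4 281-fold higher, and the mean increase was 124-fold. Without HLY-1 the mean difference was 7.89, and without HLY-1 and K422 it was 8.17, a 289-fold increase over an untreated level of 8.46 ± 0.65 (SD, n = 9), or 214-fold with the same floor. Among the 15461 named genes the increase of DHRS2 was the largest in BL41, OciLy10 and SUDHL4 and among the 5 largest in Ramos, OciLy3, SUDHL6 and SC-1. It ranked 13 in Raji, 14 in ROS50, 31 in K422 and 1454 in HLY-1. The rank was lowest in the lines with the most DHRS2 before treatment.

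The raw signals show how far the scale ran. In OciLy10 the raw DHRS2 signal was 259 untreated and 300119 treated. In K422 it was 42524 and 934421, and in HLY-1 243818 and 380700. In HLY-1 the difference was 1.44 after quantile normalization, 0.92 after median scaling and 0.64 without normalization, so that line was at least 2-fold higher under the first of these scalings and not under the other two. Untreated HLY-1 was the line with both the highest DHRS2 level and the lowest B cell marker level. Whether these belong together was not tested.

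**Figure D2:**
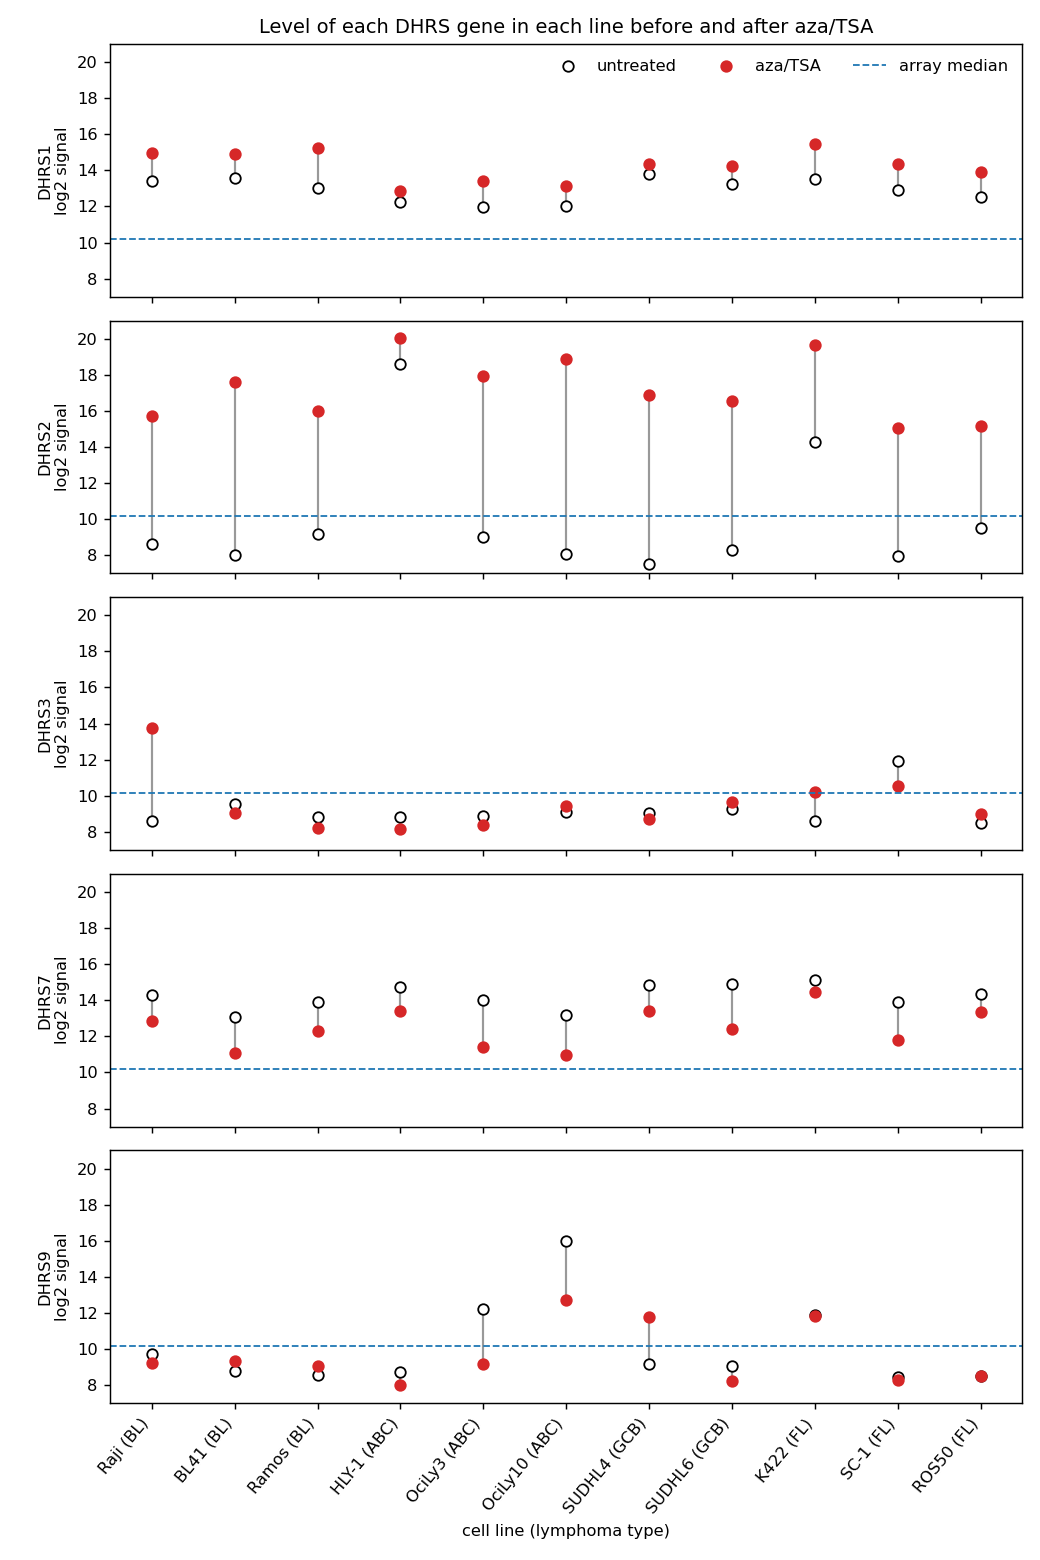
Log2 signal (y axis) of the 5 measured DHRS genes in each of 11 lymphoma lines (x axis, type in brackets), 1 culture per line and condition. Open points are untreated, red points aza/TSA treated, grey lines join the cultures of a line, and the dashed line is the array median of 10.18. Untreated DHRS2 lies below the median in all lines but HLY-1 (18.57) and K422 (14.29), and treated DHRS2 lies at 15.07 or above in all 11.

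DHRS2 had the largest difference of the 5 genes in 11 of 11 lines, which is what it was chosen for. The gap to the next gene was smallest in HLY-1 (0.83) and widest in OciLy10 (9.69). The next gene was DHRS1 in 9 lines, DHRS3 in Raji and DHRS9 in SUDHL4. The other genes did not all go the same way. DHRS1 was higher in all treated lines, DHRS7 was lower in all, and DHRS3 and DHRS9 went up in some lines and down in others. DHRS1 and DHRS2 met the rule of the study, a rise of 2-fold or more in 6 or more lines, as did 6.52% of all elements. DHRS7 met the same rule turned downward, as did 5.80% of all elements. Since these values chose the genes, nothing is read from those counts. The median difference over all elements was −0.03.

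**Figure D3:**
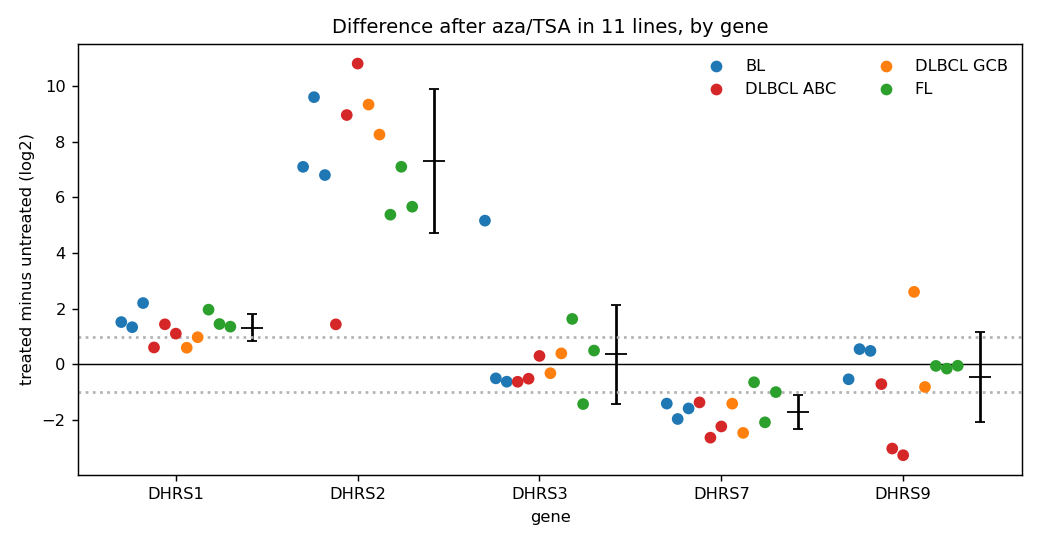
Treated minus untreated log2 difference (y axis) of the 5 measured DHRS genes (x axis). Each point is 1 of 11 lines, coloured by lymphoma type, the black mark with bar is the mean ± SD, and dotted lines mark 2-fold. DHRS2 has a mean of 7.31 with HLY-1 lowest at 1.44, DHRS7 lies below 0 in all lines, and the DHRS3 point at 5.16 is Raji.

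DHRS1 was expressed above the array median in all 22 cultures and was modestly higher after treatment. Its untreated level ran from 11.97 (OciLy3) to 13.78 (SUDHL4), with a median of 13.05, and its treated level from 12.88 (HLY-1) to 15.49 (K422), with a median of 14.35. The difference was positive in all 11 lines and reached 2-fold in 8, and treated and untreated levels overlapped between lines. Its mean was 1.32 ± 0.50 (SD, n = 11, SE 0.15), a 2.50-fold increase. The difference was largest in Ramos (2.20) and K422 (1.97) and smallest in SUDHL4 (0.60) and HLY-1 (0.61). In HLY-1 the raw DHRS1 signal was 3222 untreated and 3080 treated, so that without normalization DHRS1 was higher in 10 lines and lower by 0.07 on the log2 scale in HLY-1. After median scaling the mean difference was 1.02, with 6 lines at least 2-fold higher.

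DHRS7 was likewise above the array median in all 22 cultures, and was lower after treatment in 11 of 11 lines. Its untreated level ran from 13.04 (BL41) to 15.11 (K422), with a median of 14.27, and its treated level from 10.95 (OciLy10) to 14.47 (K422), with a median of 12.41. The mean difference was −1.70 ± 0.62 (SD, n = 11, SE 0.19), a 3.26-fold lower level after treatment. It was at least 2-fold lower in 9 lines. The difference was largest in OciLy3 (−2.63) and SUDHL6 (−2.46) and smallest in K422 (−0.64) and ROS50 (−0.99). It was lower in all 11 lines under every scaling tried. K422, with the smallest change, had the highest DHRS7 level in both conditions.

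DHRS3, a retinal reductase, was below the array median in 10 of 11 untreated lines and differed by 2-fold or more between conditions in 3. The untreated levels of those 10 lines lay between 8.50 (ROS50) and 9.56 (BL41), and SC-1 stood above them at 11.94. After treatment Raji went from 8.61 to 13.77, K422 went from 8.60 to 10.23, and SC-1 went down to 10.52. In the other 8 lines the difference lay between −0.62 and 0.50. The mean difference was 0.36 ± 1.78 (SD, n = 11, SE 0.54) and the median −0.32, with 5 lines higher and 6 lower. Without Raji the mean difference was −0.12.

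DHRS9, a retinol dehydrogenase, was above the array median in 3 untreated lines, and lower by 2-fold or more after treatment in 2 of these. Its untreated level was 15.97 in OciLy10, 12.21 in OciLy3 and 11.91 in K422, and 8.44 to 9.73 in the other 8 lines. After treatment OciLy10 was at 12.71 and OciLy3 at 9.19, differences of −3.26 and −3.02, while K422 was at 11.85. SUDHL4 went the other way, from 9.18 to 11.79. The mean difference was −0.45 ± 1.62 (SD, n = 11, SE 0.49), and without OciLy3 and OciLy10 it was 0.15. Without SUDHL4 it was −0.75. OciLy3 and OciLy10 were also the only lines grown in IMDM with plasma, and line and medium cannot be told apart.

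The second DHRS9 element was also highest in these 3 lines. Its untreated level was 15.69 in OciLy10, 11.46 in K422 and 10.92 in OciLy3, and its difference was −3.36 in OciLy10 and −2.18 in OciLy3. It disagreed in SUDHL4, where it gave 0.34 against 2.60 for the first element. In BL41 it gave −2.02 against 0.55. Its untreated BL41 level was 10.82, close to that of OciLy3 and above the array median, against 8.76 for the first element. Over the 11 lines the elements correlated with r = 0.89 for untreated levels and r = 0.64 for the differences, with the RNA and the array in common. The mean difference of the second element was −0.70 ± 1.32 (SD, n = 11).

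**Figure D4:**
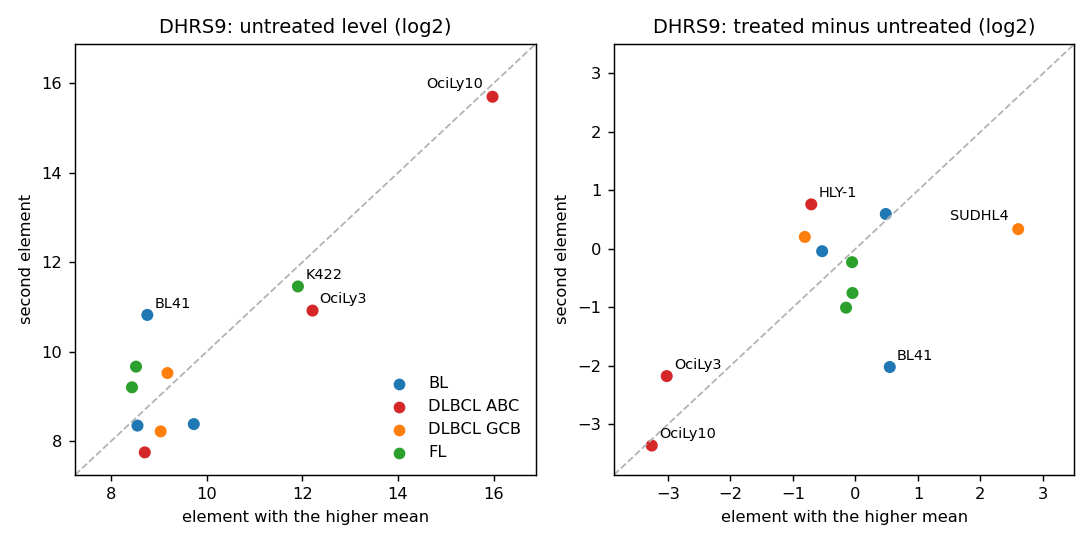
The 2 array elements of DHRS9 plotted against each other, untreated log2 level on the left and treated minus untreated log2 difference on the right. Each point is 1 of 11 lines, coloured by lymphoma type, and the dashed line marks equal values. OciLy10 and OciLy3 are lower after treatment with both elements (−3.26 and −3.36, −3.02 and −2.18), while SUDHL4 and BL41 lie off the line.

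The differences of the 5 genes did not run in parallel across lines. Between DHRS1 and DHRS2, both higher in all treated lines, Pearson's r of the differences was 0.00 over 11 lines. The correlation furthest from 0 was between DHRS2 and DHRS7 (r = −0.58), followed by DHRS7 and DHRS9 (r = 0.53). The remaining pairs lay between −0.15 and 0.36. The 2 values of a pair come from the same arrays, and these coefficients are a description. They include HLY-1, whose DHRS2 difference of 1.44 lay well below the 5.38 to 10.80 of the other 10 lines. In HLY-1 the DHRS1 difference (0.61) was also among the smallest. Among the other lines, DHRS2 rose most in OciLy10, BL41 and SUDHL4, where DHRS1 differed by 1.11, 1.34 and 0.60. DHRS2 rose least in K422, ROS50 and Ramos, where DHRS1 differed by 1.97, 1.36 and 2.20. The r of 0.00 between DHRS1 and DHRS2 thus rests on HLY-1. Coefficients without HLY-1 are not given, and the others with DHRS2, and the order of the pairs, may rest on that line too.

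Levels in the untreated lines were compared between the 4 lymphoma types, which played no part in the choice of the genes. None of the 5 genes differed between types after adjustment over all elements (limma F-test). Over all elements 0.0973% did in untreated cells and 0.00304% in treated cells. At an unadjusted p below 0.05 the numbers were 2223 elements (6.76%) untreated and 1945 (5.92%) treated. With all lines included, DHRS1 came nearest to a difference. It was 11.97 to 12.27 in the DLBCL ABC lines, 12.54 to 13.52 in FL, 13.05 to 13.57 in BL and 13.24 to 13.78 in DLBCL GCB, so that the 3 DLBCL ABC lines were the lowest of all. The unadjusted p was 0.023 and the adjusted p 0.647 (limma F-test). After treatment the DLBCL ABC lines were at 12.88 to 13.41 and again the lowest, with an unadjusted p of 0.00923 and an adjusted p of 0.728 (limma F-test). Without HLY-1 the adjusted p was 0.718 untreated and 0.897 treated (limma F-test). The DLBCL ABC lines include both lines grown in IMDM, so that type and medium cannot be fully told apart.

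DHRS2 varied widely within types. Untreated, the DLBCL ABC lines spanned 8.07 to 18.57 and the FL lines 7.98 to 14.29, and the adjusted p was 0.891 (limma F-test). After treatment the means were 18.94 ± 1.04 (SD, n = 3) in DLBCL ABC, 16.70 ± 0.24 (SD, n = 2) in DLBCL GCB, 16.63 ± 2.63 (SD, n = 3) in FL and 16.44 ± 1.02 (SD, n = 3) in BL, with an adjusted p of 0.872 (limma F-test). Without HLY-1 these p-values were 0.878 and 0.956. Without K422, treated DHRS2 came nearer to a difference, with an unadjusted p of 0.00136 and an adjusted p of 0.472 (limma F-test). For DHRS3, DHRS7 and DHRS9 the adjusted p-values were 0.83 to 0.958 untreated and 0.905 to 0.987 treated (limma F-test). Without HLY-1, untreated DHRS9 came nearer to a difference than DHRS1. Its unadjusted p was 0.00562 and its adjusted p 0.367, against 0.044 and 0.718 for DHRS1 (limma F-test). OciLy3 and OciLy10, both grown in IMDM, were then the only DLBCL ABC lines, so type and medium cannot be told apart. The types held 2 or 3 lines each.

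Related genes were compared between treated and untreated cells with limma, cell line as a block. Over all elements 11.2% rose and 12.4% fell. Of 11 further genes named DHRS or formerly so named, 7 were measured, of which 2 rose, 1 fell and 4 did not pass, with a median difference of 0.38. HSD17B11, once DHRS8 and an enzyme of lipid droplets acting on steroids, rose by 1.84 (SE 0.32, adjusted p 7.3e-04, limma) and was higher in 10 of 11 lines. Its untreated levels ran from 11.70 (K422) to 14.79 (ROS50), and in ROS50 the difference was −0.15. DHRS7B, which works in ether lipid synthesis, rose by 0.63 (SE 0.17, adjusted p 0.0169, limma), a call that was lost after median scaling and without normalization. BDH2, once DHRS6 and a cytosolic hydroxybutyrate dehydrogenase, fell by 0.73 in 11 of 11 lines (SE 0.14, adjusted p 0.00114, limma). DHRS11 differed by 0.38, DHRS12 by 0.38, DHRS13 by −0.87 and HSD17B14 by −0.25, none past the threshold (adjusted p 0.355, 0.525, 0.0965 and 0.49, limma). Like the 5 genes above, these relatives went in both directions.

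Of 32 genes listed for the retinoid pathway, the route of DHRS3 and DHRS9, 30 were measured. Of these 2 rose, 3 fell and 25 did not pass, with a median of −0.17, where 11.2% of all elements rose and 12.4% fell. ALDH1A1, which oxidizes retinal to retinoic acid, rose by 2.10 in 10 of 11 lines (SE 0.42, adjusted p 0.00203, limma). Its untreated level was 13.38 in HLY-1 and 6.17 to 9.22 in the other 10 lines, so HLY-1 stood out as it did for DHRS2. In OciLy10 ALDH1A1 went from 8.81 to 13.27, and in SUDHL6 from 8.17 to 7.71. RDH14, a retinol dehydrogenase, fell by 0.85 in 11 of 11 lines (SE 0.14, adjusted p 5.2e-04, limma). RPE65, the retinoid isomerase of the eye, differed by 0.76 from low signals (8.55 to 9.32), with an adjusted p of 0.0463 (limma) that was lost on leaving out any of 9 lines and under the 5 alternatives tried. The receptors RARB and RXRB, named after their values were seen, were lower by 0.76 and 0.74 on the log2 scale (adjusted p 0.0458 and 0.0223, limma). The RARB call was lost on leaving out any of 9 lines, and both were lost without HLY-1, OciLy10 and SUDHL4.

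Among 34 measured genes of the wider short-chain dehydrogenase family, 5 rose, 5 fell and 24 did not pass, with a median of 0.13. Of all elements 11.2% rose and 12.4% fell. DCXR, a reductase of sugars and dicarbonyl compounds, rose by 1.62 in 11 of 11 lines (SE 0.15, adjusted p 6.6e-06, limma). BDH1, the mitochondrial hydroxybutyrate dehydrogenase, fell by 2.46 in 11 of 11 lines (SE 0.21, adjusted p 3.0e-06, limma). WWOX, an oxidoreductase encoded at a fragile site, fell by 1.33 in 11 of 11 lines (SE 0.22, adjusted p 4.3e-04, limma). Under median scaling or no normalization 2 of the 34 rose. Of 7 measured aldo-keto reductases, a separate family with overlapping substrates, 1 rose, none fell and 6 did not pass, with a median of −0.09. That gene was AKR7A2, higher by 0.89 in 11 of 11 lines (SE 0.17, adjusted p 0.00147, limma), a call that was lost after median scaling and without normalization.

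Because DHRS2 is known to bind MDM2, genes of the p53 pathway were read beside it. Of 17 measured genes, 6 rose, 4 fell and 7 did not pass, with a median of 0.38, where 11.2% of all elements rose and 12.4% fell. SESN1, a stress protein induced by p53, rose by 2.0 in 11 of 11 lines (SE 0.29, adjusted p 1.9e-04, limma). CDKN1A, which encodes the cyclin kinase inhibitor p21, rose by 1.97 in 11 of 11 lines (SE 0.40, adjusted p 0.00222, limma). FAS, a death receptor, fell by 1.72 and was lower in 10 of 11 lines (SE 0.34, adjusted p 0.00173, limma). MDM2 itself differed by 0.38 (SE 0.35, adjusted p 0.502, limma), and its relative MDM4 fell by 1.31 (SE 0.31, adjusted p 0.0063, limma). MDM2 was above the array median in 2 untreated and 4 treated lines, so its difference rests on mostly dim signals. MDM4 was above the array median in 6 untreated lines and 1 treated line, so its treated signals were mostly dim too. Without HLY-1, OciLy10 and SUDHL4, 1 gene of the list fell in place of 4, and MDM4, at −0.86, did not pass.

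The neighbours of DHRS2 on chromosome 14 were also measured. Of the 5 protein-coding genes on each side in the order of the RefSeq table, 4 had an element, DHRS4 being the nearest gene on one side and without one. AP1G2, a subunit of a vesicle adaptor, fell by 0.52 (SE 0.14, adjusted p 0.0163, limma). THTPA, a thiamine triphosphatase, fell by 1.03 (SE 0.33, adjusted p 0.0339, limma), a call lost on leaving out any of BL41, K422, OciLy10, OciLy3, SUDHL4 or SUDHL6. CPNE6 differed by 0.70 (SE 0.26, adjusted p 0.0668, limma) and passed when BL41 or SC-1 was left out. NRL differed by 0.86 (SE 0.56, adjusted p 0.315, limma), with 5.96 in K422, where DHRS2 differed by 5.38. Thus 2 of the 4 measured neighbours fell and none passed upward, where 12.4% of all elements fell and 11.2% rose, and 6 had no value.

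The genes whose levels ran most like DHRS2 were sought by Pearson's r, as a description, among the 10399 genes above the array median on 6 or more arrays. Over the 22 arrays they were MAGEA4 (r = 0.94), BSCL2 (r = 0.92), SELENOM (r = 0.91), PLAC1 (r = 0.90) and GAGE4 (r = 0.90). MAGEA4 and GAGE4 are cancer-testis antigens, normally restricted to germ cells. Untreated MAGEA4 was 17.58 in HLY-1, 13.10 in K422 and 7.78 to 12.19 in the other 9 lines, the order seen for DHRS2. Untreated GAGE4 was 19.16 in HLY-1, 10.06 in K422 and 8.24 to 11.57 in the other 9. Over the 11 untreated arrays alone they were ATF6 (r = 0.91), BSCL2 (r = 0.91), PIGU (r = 0.91), MAGEA4 (r = 0.90) and IFTAP (r = 0.89). The 22-array coefficients span both conditions, so a gene that rose strongly after treatment scores high, and DHRS2 was chosen for its rise. DHRS2 passed the filter through treated arrays, being above the median in 2 untreated and 11 treated ones. Without HLY-1 and K422 the 22-array coefficients were 0.90 to 0.94 over 18 arrays. The untreated ones were then 0.20 for ATF6, 0.10 for BSCL2, 0.21 for PIGU, −0.07 for MAGEA4 and 0.55 for IFTAP over 9 arrays, so the untreated likeness rested on those lines.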

How the data were processed

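The authors deposited raw chemiluminescence intensity values of the Applied Biosystems array for 22 cultures, 32878 elements each, and a log2 table, for which they used ABarray and Bioconductor. Quantile normalization of the deposited intensity values gave the log2 table to within 1.6e-04, and the table was used. Settings of the image analysis were not given in the sources used here. No filter on dim elements was applied, except in the search for genes like DHRS2. Elements were named through the platform annotation, updated with a RefSeq table (GRCh38.p14): 17073 elements had 1 symbol, 139 several and 15666 none, and only the first were used. For genes with more than 1 such element, the brightest on average was taken.

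Genes other than the 6 were tested by limma (version 3.58.1, R 4.3.3), using lmFit and eBayes with a term for cell line. Tests were two-sided, and Benjamini-Hochberg adjustment ran over every element with a threshold of 0.05. Types were compared by its F-test. The procedure was tested on simulated data. Pairing of cultures follows from their shared line. Cultures are single, so p-values measure the spread between lines. The number of arrays limits the precision. Named genes were the 6 DHRS genes, the measured genes once or now named DHRS, the 3 largest changes past the threshold in each other list, 5 neighbours on each side of DHRS2, and the 5 genes most like it. MDM2, MDM4, RARB and RXRB were named beyond this rule. The genes and lists were chosen with earlier results of these data known. Protein sequences were not analysed here. Alternatives were other scalings, a floor on dim signals, subsets of lines, a filter on detected elements, a variance trend, all elements of a gene and no block.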

Additional observations from a re-analysis of the deposited data

Results flagged for a closer look

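The second element of DHRS9 was higher after treatment in both DLBCL GCB lines (mean difference 0.27) and lower in all 3 FL lines (mean −0.66), so every line of one type moved against every line of the other. The rises were small, 0.34 in SUDHL4 and 0.20 in SUDHL6, and K422 differed by −0.23. Among the lines of both types, only K422 was above the array median for this element. The difference between the types was not tested. It was the 1 such case among 27 elements, each looked at over 6 pairs of types, and the first DHRS9 element did not share it.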

How the results depend on the processing

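The mean differences of DHRS1, DHRS2 and DHRS7 kept their direction throughout. Leaving out each line in turn gave 1.24 to 1.40 for DHRS1, 6.96 to 7.89 for DHRS2, −0.12 to 0.54 for DHRS3, −1.81 to −1.61 for DHRS7 and −0.75 to −0.17 for DHRS9. The other alternatives gave 1.02 to 1.53, 6.74 to 7.35, 0.36 to 0.58, −1.93 to −1.54 and −0.60 to 0.15 in the same order. DHRS4 had no value under any. Recomputed quantile normalization gave the same values. Median scaling moved the median of all mean differences to −0.15, and the elements 2-fold higher or lower in 6 lines from 2143 and 1908 to 1676 and 2771.

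Paired by cell line, 3674 elements rose and 4064 fell, and with no replicate block 2059 and 2136. Leaving out each line gave 3323 to 3559 and 3616 to 3976. With no replicate block the further DHRS genes had 1 up and 0 down, the retinoid list 0 and 1, the wider family 1 and 3, and the p53 list 3 and 1. Median scaling and no normalization each gave 1 further DHRS gene up, 2 of the wider family and 0 aldo-keto reductases. Without HLY-1, OciLy10 and SUDHL4 there was 1 retinoid gene up, 3 of the wider family up and 1 p53 gene down. The cause of these shifts was not tested, and leaving out lines also leaves fewer samples.

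Between types, 32 untreated elements differed, against 18 with the floor, 19 without HLY-1, OciLy10 and SUDHL4, 72 in RPMI lines, 12 among detected elements and 22 to 75 on leaving out each line, 75 without HLY-1. In treated cells 1 differed, against 2 (median scaling), 8 (no normalization), 6 (floor), 6 (without those 3 lines), 13 (RPMI lines), 0 (detected elements) and 0 to 6 on leaving out each line. No DHRS gene passed where it was tested. Among detected elements, DHRS3 and DHRS9 were not tested in either condition, nor DHRS2 untreated. Signals below the array median, as for most of DHRS3 and DHRS9 and most untreated DHRS2, limit what a difference can show.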
